A study of Mus musculus with 6 samples.

Results

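The genes described here are the 38 nuclear genes whose products copy, transcribe, process, stabilise, degrade and translate the mitochondrial genome. They were listed by name for these roles, and all 38 had an entry in a table of 55401 entries with 55291 distinct symbols. Mitochondria keep a small circular genome (mtDNA) that encodes core subunits of the respiratory chain together with the rRNAs and tRNAs needed to make them. A dedicated RNA polymerase reads long polycistronic transcripts, tRNAs are cut out at both ends to release the mRNAs, and the mRNAs are then polyadenylated, bound by stabilising proteins and translated on a separate ribosome. Every protein of this machinery is encoded in the nucleus and imported, and T cells that leave quiescence after stimulation enlarge their mitochondria with it.

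The libraries were made from CD4+ (helper) T cells isolated from the spleen of wild-type (WT) naive C57BL/6 mice and stained with CFSE, a dye that is diluted at each division. All cells were stimulated in RPMI medium for 48 h with 200 U of IL-2 and with antibodies that engage CD3 and CD28. The treated group (3 libraries) also received 5 mM itaconate, an acid that stimulated macrophages produce from the TCA cycle, and the control group (3 libraries) 5 mM NaCl. In the table the control columns are coded NAC, taken as NaCl, the one other treatment in the labels. Nothing in the labels ties the libraries to separate animals or wells. The p-values therefore speak only for the spread among these 6 libraries, which may be technical.

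The libraries held 20074299 to 24144999 estimated reads, and between 16762 and 17604 entries per library had a value above 0. Of the 38 genes, all passed the filter on low values, which asked for a mean of 10 or more. The 8 markers of CD4+ T cells summed to 55820 to 61870 normalized estimated counts in NaCl and to 63250 to 66550 with itaconate, and none of them was at 0. The markers did not move together: Cd4, Cd3e and Cd28 rose, Cd3g fell and 4 did not pass. Cd4 was at 9519 ± 853 in NaCl and 13507.5 ± 435 with itaconate, and Cd3g at 4270 ± 379 and 3138 ± 77.5 (SD, n = 3). The 7 B cell markers summed to 1236 to 1540 in NaCl and 1957 to 2057 with itaconate, mostly from Ighm (1053 ± 96.5 and 1708 ± 67.3; SD, n = 3). The 9 myeloid markers summed to 62.2 to 103.2 and 158.5 to 210.8, with S100a8 and S100a9 at 0 in every library. Of the 3 tested, Itgam was at 14.25 ± 9.12 in NaCl and 59.05 ± 17.16 with itaconate (limma adjusted p = 0.00521). Cd68 was at 56.9 ± 13.998 and 110.1 ± 36.6 (limma adjusted p = 0.0318). Both were higher in every itaconate library than in any NaCl library, while Itgax did not pass. The 4 NK cell markers summed to 109.5 to 158.1 and 214.5 to 249.2, mostly from Eomes (111 ± 16.05 and 214 ± 19.2), while Klrd1 was at 19.0 ± 8.24 and 11.7 ± 3.08. The 2 CD8 markers summed to 363.1 to 407.9 and 307.9 to 365.2. Of the erythroid and platelet markers, Hba-a1, Pf4 and Ppbp were at 0, and the sum reached at most 3.01 and 3.74. The part of these other cells in the results was not tested.

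Of the 38 genes, 9 fell with itaconate, 0 rose and 29 did not pass. The threshold was 0.05 on limma p-values adjusted by Benjamini and Hochberg's method. Among all 13170 tested genes 17.8% fell, 18.2% rose and 36.0% changed in either direction, beside 23.7% of the 38. The 9 genes were Tefm and Tfb2m of transcription, Ssbp1 of replication, Hsd17b10 of tRNA processing, Fastk, Fastkd2, Fastkd3 and Tbrg4 of the FASTK family of RNA-binding proteins, and Mtif2 of translation. Their levels with itaconate were 49.5% to 79.1% of those in NaCl on the scale of the fit. At an unadjusted p under 0.05, 18 of the 38 passed, 1 of them higher. The share of all tested genes at this looser threshold was not counted. It cannot be under the 36.0% that pass after adjustment, but how far above it lies is not known. Without that share the 18 cannot be read as a result about the 38 genes. The median log2 fold change of the 38 was −0.205, against −0.000954 over all tested genes, with 24 values below 0 and 14 above. Without itaconate replicate 3 the median was −0.129. Leaving out NaCl replicate 3 left 5 genes that fell. In the 3 itaconate libraries the median of the 38 genes relative to the NaCl mean was −0.117, −0.202 and −0.214 on the log2 scale. The 3 itaconate values lay wholly below the 3 NaCl values for 17 of the 38 (24.2% of all tested genes) and wholly above for 3 (24.2%), and overlapped for 18. Because this is bulk RNA, fewer cells of a type and less RNA per cell cannot be told apart.

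**Figure D1:**
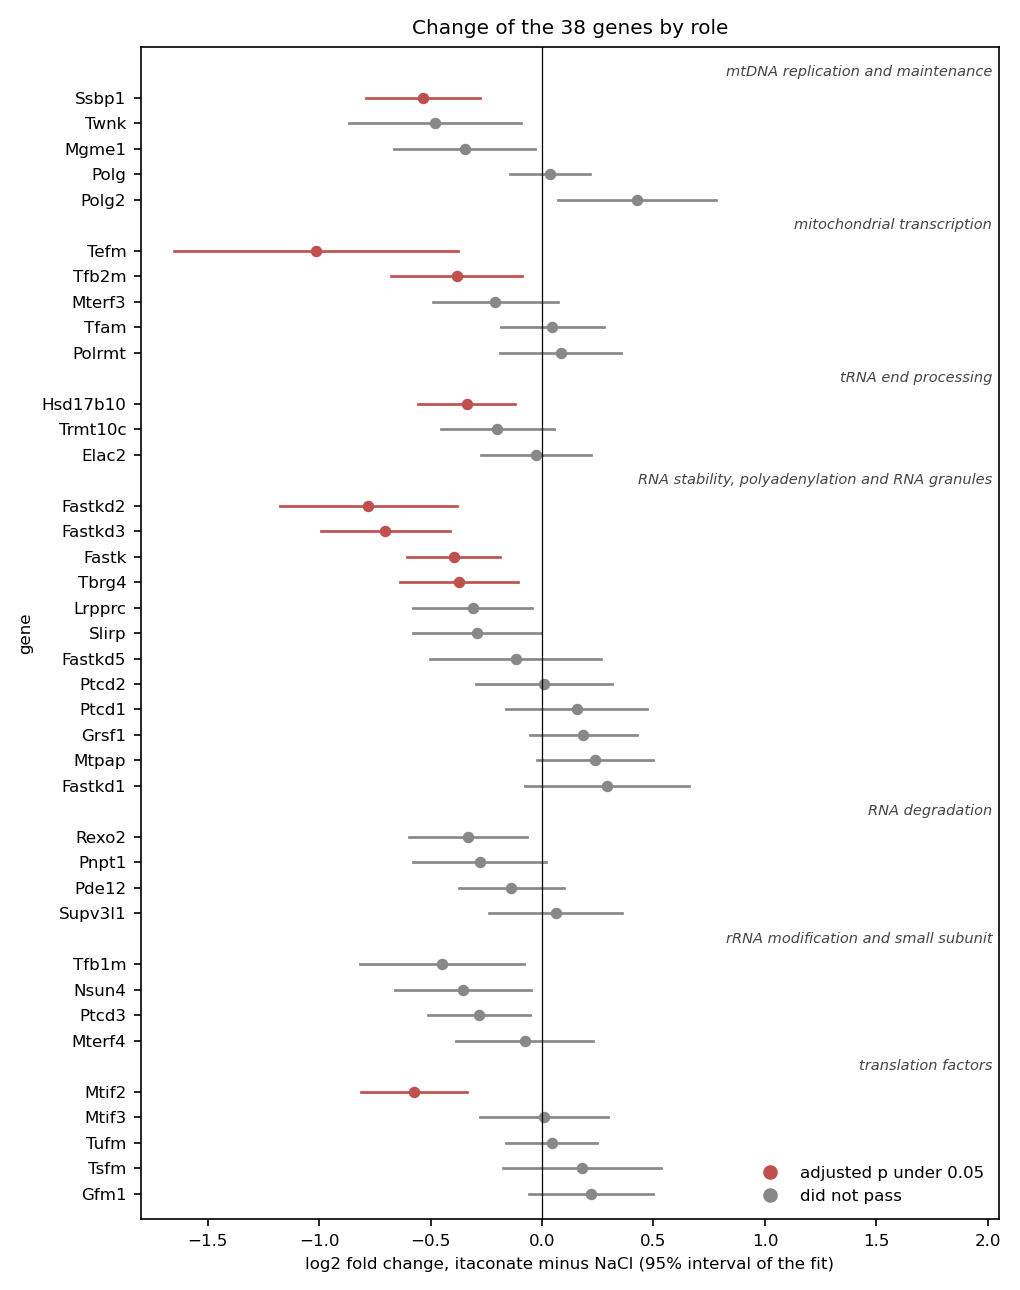
Log2 fold change of each of the 38 genes (x axis, itaconate minus NaCl, on the log2(value + 1) scale) with the 95% interval of the limma fit, grouped by role and ordered within it (y axis). The 9 genes with an adjusted p under 0.05 all lie to the left of 0, Tefm farthest at −1.01, and the highest point, Polg2 at 0.43, did not pass.

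The promoters of these genes hold the letters of known regulators of respiration genes, and a few are shown so that the genes that fell can be set beside one that did not pass. RefSeq windows of 250 bases before a start site were found for 35 of the 38 genes (GRCm38.p6, the mm10 assembly named in the processing notes). Mterf3, Mtif3 and Mtpap had none. CCGGAAG, the ETS core bound by GABP (also called NRF-2, a known activator of mitochondrial gene promoters), was searched on both strands and lay in the windows of 16 of the 35 genes (45.7%). It lay in 16.4% of the 9758 tested genes that had a window and in 6.91% of all 32851 windows. Of the 9 genes that fell 5 had it, and of the 26 others 11. The core bound by nuclear respiratory factor 1 (GCGCA, any base, then GCGC) was found only in Fastkd3 (1 of 35 genes, 9.68% of tested genes). AAGATGGCG, the YY1 core, was found in 4 genes (11.4%, against 1.496% of tested genes), the E-box CACGTG in 1 gene (2.86%, against 9.85%), and the GC box GGGCGG in 20 genes (57.1%, against 63.8%). CCGGAAG and AAGATGGCG can share their AAG, but no matches of these 2 overlapped in the 35 genes. The sequences below end at the base before the RefSeq start site, are written 5′ to 3′, and carry in capitals the matches to the ETS, NRF1 or YY1 core on either strand. Every sequence shown has such a match. Among the genes that fell, Tfb2m, Hsd17b10 and Fastkd2 are not shown and have no match to these cores. A match is a description of the letters and not a measured binding site.
Tefm, chr11:80142154-80142403, minus strand: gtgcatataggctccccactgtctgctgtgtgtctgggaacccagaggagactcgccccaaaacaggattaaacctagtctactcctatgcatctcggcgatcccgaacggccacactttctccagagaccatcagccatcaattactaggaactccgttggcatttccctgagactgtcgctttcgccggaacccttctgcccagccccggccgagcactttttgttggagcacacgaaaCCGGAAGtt
Mtif2, chr11:29526147-29526396, plus strand: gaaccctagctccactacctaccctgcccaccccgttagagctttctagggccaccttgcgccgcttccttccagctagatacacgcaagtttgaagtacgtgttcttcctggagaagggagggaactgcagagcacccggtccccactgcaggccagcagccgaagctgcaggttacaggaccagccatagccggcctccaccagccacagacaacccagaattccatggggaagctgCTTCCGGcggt
Fastkd3, chr13:68581960-68582209, plus strand: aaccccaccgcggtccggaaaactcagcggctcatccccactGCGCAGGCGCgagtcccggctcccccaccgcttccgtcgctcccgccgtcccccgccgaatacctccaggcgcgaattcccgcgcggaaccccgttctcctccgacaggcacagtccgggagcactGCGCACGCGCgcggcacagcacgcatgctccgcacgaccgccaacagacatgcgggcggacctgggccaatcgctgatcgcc
Tbrg4, chr11:6626068-6626317, minus strand: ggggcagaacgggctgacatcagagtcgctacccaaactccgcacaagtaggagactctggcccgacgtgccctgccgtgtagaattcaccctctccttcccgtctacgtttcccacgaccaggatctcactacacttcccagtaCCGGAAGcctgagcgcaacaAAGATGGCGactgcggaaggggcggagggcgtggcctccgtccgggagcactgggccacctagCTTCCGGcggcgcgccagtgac
Polrmt, chr10:79746582-79746831, minus strand: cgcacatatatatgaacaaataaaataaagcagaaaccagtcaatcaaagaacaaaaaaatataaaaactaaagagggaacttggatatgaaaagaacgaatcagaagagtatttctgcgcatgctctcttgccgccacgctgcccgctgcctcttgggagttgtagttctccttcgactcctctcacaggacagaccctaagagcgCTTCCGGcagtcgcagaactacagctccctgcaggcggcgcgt
Distances are from the RefSeq start. In Tefm the ETS core lay 3 to 9 bases before the start and in Mtif2 5 to 11 bases before it. Tbrg4 had it at 16 to 22 and at 99 to 105 bases, with the YY1 core at 77 to 85 bases. Fastkd3 had the NRF1 core at 73 to 82 and at 199 to 208 bases. GENCODE places some of these starts elsewhere. Its start of Tefm (chr11:80142175) lies upstream of the RefSeq start, so that ETS core is inside the GENCODE gene. Its starts of Mtif2 (chr11:29526408) and Fastkd3 (chr13:68582234) lie downstream of the RefSeq starts. Polrmt, which did not pass the test, had the ETS core at 37 to 43 bases, so the letters occurred in genes of both outcomes.

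The polymerase that transcribes mtDNA works with a promoter-melting factor, a packaging factor and an elongation factor, and the genes of the melting and the elongation factor fell while the polymerase gene did not pass. Tefm (ENSMUSG00000046909.9, chr11:80136678-80142175), which keeps the polymerase processive along the genome, had 56.1, 83.8 and 125 normalized estimated counts in the itaconate libraries and 161, 138 and 223 in the NaCl libraries. The groups did not overlap, but both spread widely. It fell by 1.01 ± 0.29 on the log2 scale (SE; limma adjusted p = 0.0170). The call ended without itaconate replicate 1 (log2 fold change −0.729, adjusted p = 0.0566), without NaCl replicate 3 (−0.821, 0.0894) and without the intensity trend (0.0692), in a range of 0.00239 to 0.0894 over 16 alternatives.

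Tfb2m (ENSMUSG00000026492.11, chr1:179528055-179546267), which opens the promoter DNA for the polymerase, had 300.2, 323 and 356 in the itaconate libraries and 426, 409 and 439.95 in the NaCl libraries. The 3 itaconate libraries were all lower, by 0.38 ± 0.13 on the log2 scale (limma adjusted p = 0.0414). Its adjusted p was the highest of the 9, and it no longer passed without itaconate replicate 1 (adjusted p = 0.122) or 2 (0.102), without NaCl replicate 1 (0.0901), 2 (0.0727) or 3 (0.117), and with no filter on low values (0.0577), in a range of 0.0279 to 0.122. Of its 31-base sequences, 35.2% also occur in the pseudogene Gm1818, which was at a mean of 7.88. Polrmt (ENSMUSG00000020329.12, chr10:79736123-79746581), the polymerase, had 773, 689 and 811 with itaconate and 623, 797 and 731 in NaCl. These overlapped, with a log2 fold change of 0.08 ± 0.12 and a 95% interval of −0.19 to 0.35 (limma adjusted p = 0.637). Tfam, which bends promoter DNA and packages the genome, had 1123, 1161 and 1001 with itaconate and 1139, 1070 and 974 in NaCl (log2 fold change 0.05 ± 0.11, interval −0.19 to 0.28). Mterf3, a repressor of mitochondrial transcription, was at 433 ± 43.7 and 499 ± 19.5 (log2 fold change −0.21 ± 0.13, adjusted p = 0.230), and its groups did not overlap.

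Replication of mtDNA uses the polymerase gamma catalytic subunit and its accessory subunit, the helicase Twinkle, a single-strand binding protein and an end-trimming nuclease, and 1 of these 5 genes fell. Ssbp1 (ENSMUSG00000029911.14, chr6:40471352-40484700), the single-strand binding protein that coats the displaced strand, had 492, 454 and 468 in the itaconate libraries and 737, 649 and 665 in the NaCl libraries. The replicates of each group lay close together and far from the other group. Ssbp1 fell by 0.53 ± 0.12 on the log2 scale (limma adjusted p = 0.00356), and the call held in all 16 alternatives.

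Polg (ENSMUSG00000039176.17), the catalytic subunit, had 2933, 2911 and 3062 with itaconate and 2801, 2836 and 3047 in NaCl, which overlapped (log2 fold change 0.04 ± 0.083, 95% interval −0.14 to 0.22; limma adjusted p = 0.760). Polg2 (ENSMUSG00000020718.12), its accessory subunit, was the member with the highest fold change, at 249.7, 286 and 303 with itaconate against 188, 231 and 204 in NaCl. The itaconate values were all higher, but the difference of 0.43 ± 0.16 did not pass (adjusted p = 0.0588, range 0.0307 to 0.161). Twnk, the helicase, had 278, 228 and 366 with itaconate and 364, 401 and 432 in NaCl, so that itaconate replicate 3 reached the lowest control. Its log2 fold change was −0.48 ± 0.18 (adjusted p = 0.0504), and without itaconate replicate 3 it passed at −0.659 (0.00657; range over alternatives 0.00657 to 0.210). Of the exon bases of Twnk, 12.6% overlap Mrpl43 on the other strand. Mgme1, the nuclease that trims flaps during replication, was at 296 ± 23.9 against 378 ± 37.6 (log2 fold change −0.35 ± 0.15, adjusted p = 0.0817).

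RNA-binding proteins of the FASTK family, which bind and process or stabilise particular mitochondrial RNAs, included 4 of the 9 genes that fell. Fastkd1 and Fastkd5 of the same family did not pass. Among all tested genes 17.8% fell, and the family was not tested as a set. Fastkd3 (ENSMUSG00000021532.11, chr13:68582234-68592338), which acts on the abundance and translation of several mitochondrial mRNAs, had 411, 320.1 and 379.8 in the itaconate libraries and 606, 625 and 570.04 in the NaCl libraries. It fell by 0.70 ± 0.13 on the log2 scale, the smallest p of the 38 (limma adjusted p = 0.00149). Fastkd2 (ENSMUSG00000025962.15, chr1:63730614-63754655), needed for the large ribosomal RNA and its ribosomal subunit, had 176, 149 and 156 against 339, 253 and 243. It fell by 0.78 ± 0.18 (adjusted p = 0.00536), with the 3 itaconate libraries within a narrow range and NaCl replicate 1 above the other controls.

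Fastk (ENSMUSG00000028959.14, chr5:24438440-24445287), the founding member, whose mitochondrial form stabilises the mt-Nd6 mRNA, had 1252, 1329.97 and 1458 with itaconate and 1687, 1831 and 1791 in NaCl. Every itaconate library was below every control, by 0.40 ± 0.096 (limma adjusted p = 0.00645). Fastk, Fastkd2 and Fastkd3 kept their calls in all 16 alternatives. Exons of Slc4a2 on the other strand overlap 26.1% of the exon bases of Fastk. With the strand setting of the counting not given in the sources used here, reads of the overlap may be divided between them. Tbrg4 (ENSMUSG00000000384.15, chr11:6615598-6626067), also called Fastkd4, which stabilises several mitochondrial mRNAs, had 989, 883 and 966 with itaconate and 1437, 1052 and 1213 in NaCl. It fell by 0.37 ± 0.12 (adjusted p = 0.0302), with NaCl replicate 1 the highest of the libraries. The call ended without NaCl replicate 1 (log2 fold change −0.257, adjusted p = 0.132), NaCl replicate 3 (0.0718) or itaconate replicate 2 (0.116) and without the intensity trend (0.0958), in a range of 0.00688 to 0.132.

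The other members of the family did not pass. Fastkd1, known as a negative regulator of the mt-Nd3 mRNA, had 340.4, 292 and 267 with itaconate and 289.6, 221 and 226 in NaCl, a log2 fold change of 0.29 ± 0.17 (limma adjusted p = 0.203). Its values overlapped, and its 95% interval of −0.08 to 0.66 did not reach those of Fastkd2 (−1.18 to −0.38) and Fastkd3 (−0.99 to −0.41). The difference between these genes was not tested. Fastkd5, which processes mRNA ends that no tRNA flanks, was at 224 ± 12.6 and 245 ± 47.1 (log2 fold change −0.12 ± 0.18). Fastkd5 shares 64.9% of its 31-base sequences with Ubox5 on the same strand, so its value is uncertain.

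**Figure D2:**
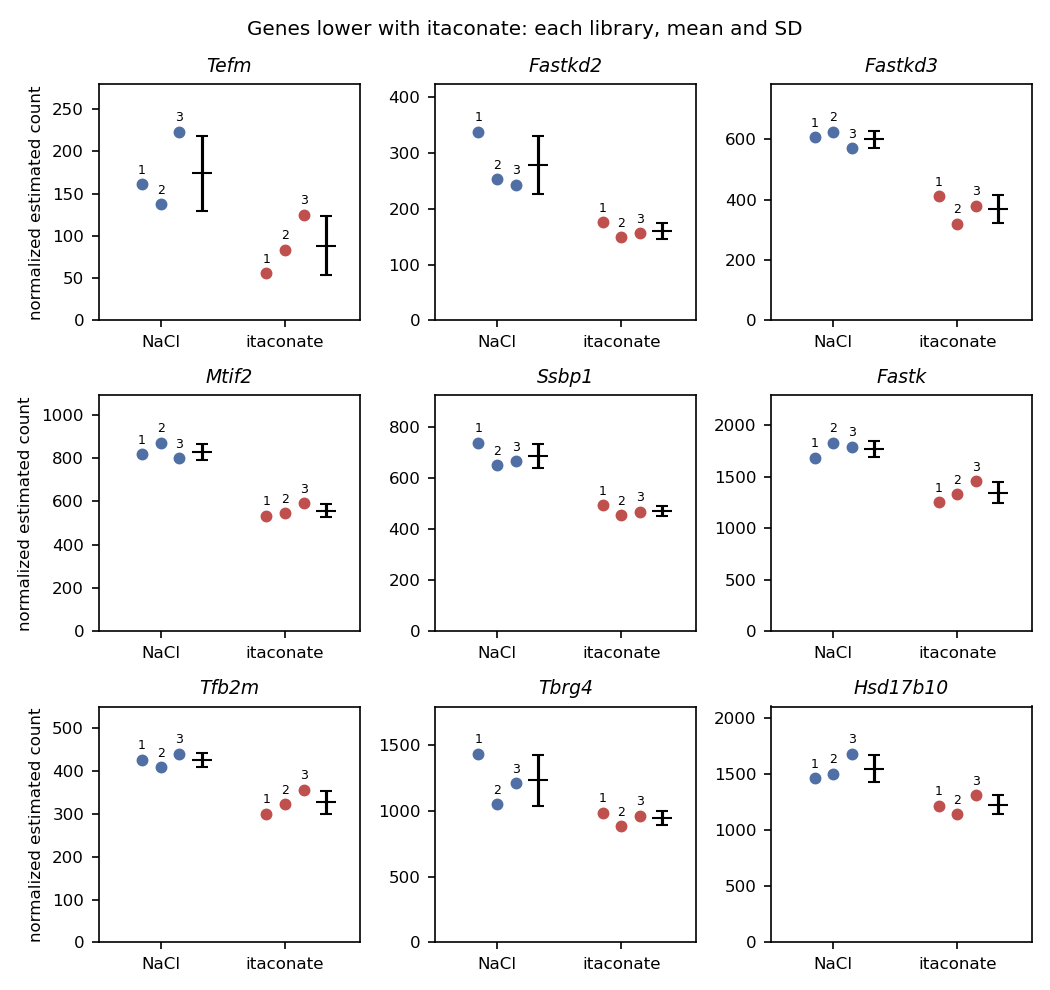
Normalized estimated counts (y axis, from 0) of the 9 genes that fell, in each NaCl and itaconate library (points, numbered by replicate), with the mean and SD of each group (black). In each panel the 3 itaconate points lie below the 3 NaCl points, with the smallest gaps relative to level in Tbrg4, Tefm and Hsd17b10.

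Outside the FASTK family, 0 of the 6 genes of RNA stability, polyadenylation and RNA granules passed the test. Lrpprc, the pentatricopeptide protein that holds mitochondrial mRNAs in a translatable form, had 1187, 887 and 1009 with itaconate and 1240.1, 1401 and 1169 in NaCl (log2 fold change −0.31 ± 0.12, limma adjusted p = 0.0650, range 0.0197 to 0.261). Slirp, the small RNA-binding partner that protects and is protected by Lrpprc, had 443, 435 and 401 with itaconate and 552, 567 and 453 in NaCl (−0.29 ± 0.13, adjusted p = 0.106). Both pointed downward and neither passed. Of the exon bases of Slirp 93.9% are also exons of Snw1 on the other strand, so its value depends on how reads were divided. Mtpap, the mitochondrial poly(A) polymerase, had 872, 776 and 784 against 747, 718 and 604, a log2 fold change of 0.24 ± 0.12 (adjusted p = 0.142) with no overlap of the groups. Grsf1, a protein of the RNA granules where transcripts are processed, had 2467, 2408 and 1974 with itaconate and 2243, 1916 and 1855 in NaCl (0.19 ± 0.11, adjusted p = 0.214). The pentatricopeptide genes Ptcd1 and Ptcd2 had log2 fold changes of 0.15 ± 0.15 and 0.01 ± 0.14.

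Release of mRNAs from the long precursor depends on RNase P, which cuts tRNA 5′ ends, and RNase Z, which cuts 3′ ends, and 1 of the 3 genes of this group fell. Hsd17b10 (ENSMUSG00000025260.10, chrX:152001845-152004442), a dehydrogenase of fatty acid and isoleucine breakdown that doubles as a scaffold subunit of mitochondrial RNase P, had 1221, 1144 and 1314 in the itaconate libraries and 1463, 1506 and 1684 in the NaCl libraries. The groups did not overlap, and it fell by 0.34 ± 0.10 on the log2 scale (limma adjusted p = 0.0193). The call ended without itaconate replicate 2 (adjusted p = 0.0902), without NaCl replicate 3 (0.0850) and without the intensity trend (0.0586), in a range of 0.00585 to 0.0902. Trmt10c, the tRNA methyltransferase subunit of the same complex, had 536, 511 and 480.3 against 605, 586 and 565, also without overlap, but the difference of −0.20 ± 0.12 did not pass (adjusted p = 0.201). Prorp, the nuclease subunit, was at 277 ± 32.7 and 271 ± 30.3 (0.03 ± 0.16, adjusted p = 0.895). Elac2, the RNase Z, was at 606 ± 45.0 and 617 ± 6.01 (−0.03 ± 0.11), with a 95% interval of −0.28 to 0.22.

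None of the 4 genes of RNA degradation passed. Rexo2, which degrades the short oligonucleotides left by RNA decay, had 997, 791 and 1053 with itaconate and 1212, 1092 and 1254 in NaCl. Its groups did not overlap and its log2 fold change of −0.33 ± 0.12 lay at the threshold (limma adjusted p = 0.0502, range 0.0111 to 0.229). Pnpt1, the polynucleotide phosphorylase, was at 813 ± 139 and 981 ± 105 (−0.28 ± 0.14, adjusted p = 0.134), and its helicase partner Supv3l1 at 452 ± 31.1 and 436 ± 57.9 (0.06 ± 0.14). Pde12, which removes poly(A) tails, had 1255, 1049 and 1042 with itaconate and 1133, 1281 and 1262 in NaCl (−0.14 ± 0.11).

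The genes that modify ribosomal RNA or build the small ribosomal subunit also gave 0 of 4 passing, with 3 close to the threshold. Tfb1m, the dimethyltransferase of the small ribosomal RNA, had 149.6, 157 and 163 with itaconate and 223, 222 and 198 in NaCl. The values did not overlap, and the log2 fold change was −0.45 ± 0.17 (limma adjusted p = 0.0556, range 0.0213 to 0.137). Ptcd3, a pentatricopeptide protein of the small subunit, had 694, 677 and 679 against 873, 827 and 796, with the itaconate libraries close together (SD 9.28; −0.28 ± 0.10, adjusted p = 0.0517, range 0.0330 to 0.146). Nsun4, the cytosine methyltransferase of the small ribosomal RNA, had 345, 314 and 404 against 463, 425 and 466 (−0.35 ± 0.14, adjusted p = 0.0664). Its binding partner Mterf4, which directs it to ribosome assembly, was at 340.5 ± 39.1 and 358 ± 11.2 (−0.08 ± 0.14).

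In all, 8 of the 29 genes that did not pass had an adjusted p between 0.05 and 0.1, and 7 of these were lower with itaconate. The share of all tested genes between these values was not counted, so neither number can be read as a result about these genes. A p that misses the threshold does not show that a gene was level, and 9 of the 29 had a log2 fold change smaller than 0.1 in size.

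Of the 5 translation factors 1 fell, the initiation factor Mtif2. Mtif2 (ENSMUSG00000020459.14, chr11:29526408-29545279), which places the initiator tRNA on the mitochondrial ribosome, had 534, 545 and 592 in the itaconate libraries and 818, 871 and 799.7 in the NaCl libraries. The gap between the groups was wider than the range within either, and Mtif2 fell by 0.57 ± 0.11 on the log2 scale (limma adjusted p = 0.00158), a call that held in all 16 alternatives. Mtif3, the other initiation factor, had 379.7, 466 and 423 against 427, 406 and 426 (0.01 ± 0.13, 95% interval −0.28 to 0.29). The elongation factor gene Tufm had 2240.4, 2106 and 2214 against 1993, 2020.03 and 2375 (0.04 ± 0.095), and 58.2% of its 31-base sequences also occur in the pseudogene Gm9755, which was at a mean of 10.9. Its exchange factor Tsfm was at 519.9 ± 75.2 and 462 ± 93.2 (0.18 ± 0.16). Gfm1, the translocase, had 903, 707 and 680.5 against 648, 629 and 676 (0.22 ± 0.13, adjusted p = 0.204), with itaconate replicate 1 well above the other libraries.

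Genes whose products work together were also compared within each library, which removes any scaling between libraries. The 8 pairs were chosen after the values had been seen. Polg2 relative to Polg was 0.0851, 0.0982 and 0.0989 in the itaconate libraries and 0.0670, 0.0815 and 0.0670 in the NaCl libraries, higher in every itaconate library. Tefm relative to Polrmt was 0.0726, 0.122 and 0.154 with itaconate and 0.259, 0.173 and 0.306 in NaCl, lower in every itaconate library. Tfb2m relative to Polrmt was 0.388, 0.469 and 0.439 against 0.684, 0.513 and 0.602, again lower in each. These 3 pairs did not overlap between the groups, and each reached p = 0.1 in a two-sided exact permutation test, the smallest that 3 against 3 allow (0.267 after Benjamini-Hochberg adjustment over the 8 pairs). The other 5 pairs overlapped. Slirp relative to Lrpprc differed least, at 0.420 ± 0.0621 with itaconate and 0.413 ± 0.0296 in NaCl (SD, n = 3; exact permutation p = 0.9). The ratios were 2.42 ± 0.276 and 2.66 ± 0.291 for Hsd17b10 to Trmt10c (exact permutation p = 0.4), 0.566 ± 0.0950 and 0.449 ± 0.0880 for Supv3l1 to Pnpt1 (0.3), 0.980 ± 0.231 and 0.794 ± 0.0214 for Mterf4 to Nsun4 (0.4), and 0.237 ± 0.0284 and 0.219 ± 0.0531 for Tsfm to Tufm (0.6). With 3 libraries per group no pair could reach the threshold.

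**Figure D3:**
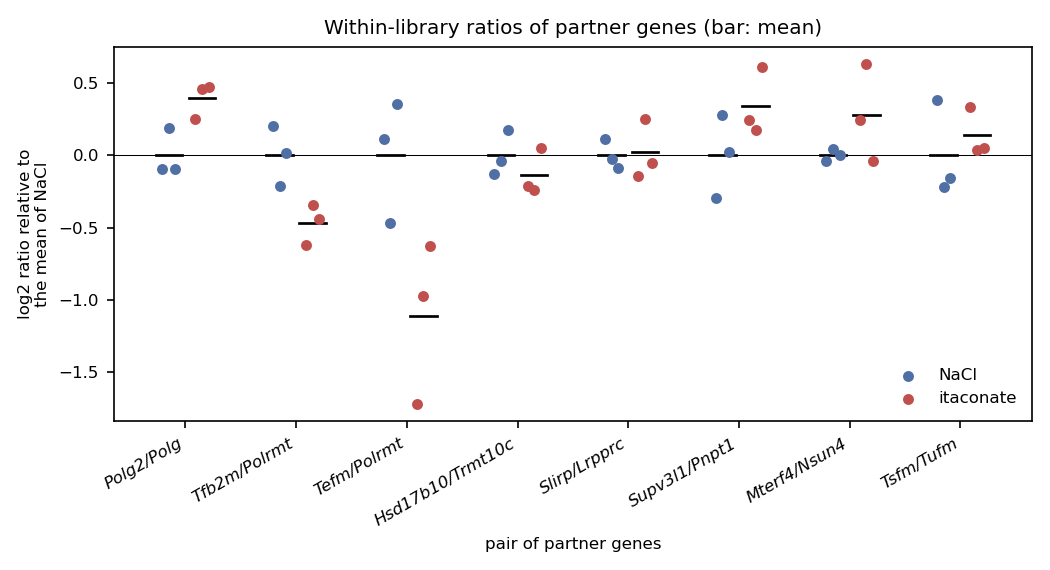
Log2 of the ratio of partner genes within each library (y axis), relative to the mean of the NaCl libraries, for 8 pairs (x axis); points are libraries and bars are group means. Polg2/Polg lies higher and Tfb2m/Polrmt and Tefm/Polrmt lie lower in the 3 itaconate libraries without overlap, and the other 5 pairs overlap.

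Levels were compared between genes as the normalized estimated count per kb of merged exon length (GENCODE M21). In NaCl, Hsd17b10 was highest at 1195 ± 90.1 per kb, followed by Tufm at 1002 ± 100.4 and Grsf1 at 660.3 ± 68.6. The lowest were Fastkd1 at 41.95 ± 6.54, Fastkd2 at 47.4 ± 8.92 and Polg2 at 47.7 ± 5.03 per kb, which lay within each other's spread. The polymerase gene Polrmt (153 ± 18.7) and the melting factor gene Tfb2m (151.6 ± 5.54) were at like levels in NaCl, and Tefm was at 110.8 ± 28.2. With itaconate these genes were, in the same order, at 162 ± 13.4, 116 ± 9.95 and 56.3 ± 22.1 per kb. Polg was at 269 ± 12.4 per kb and its accessory subunit Polg2 at 47.7 ± 5.03. Merged exons count bases of isoforms that these cells may not use, so levels of genes with long rare isoforms are understated.

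**Figure D4:**
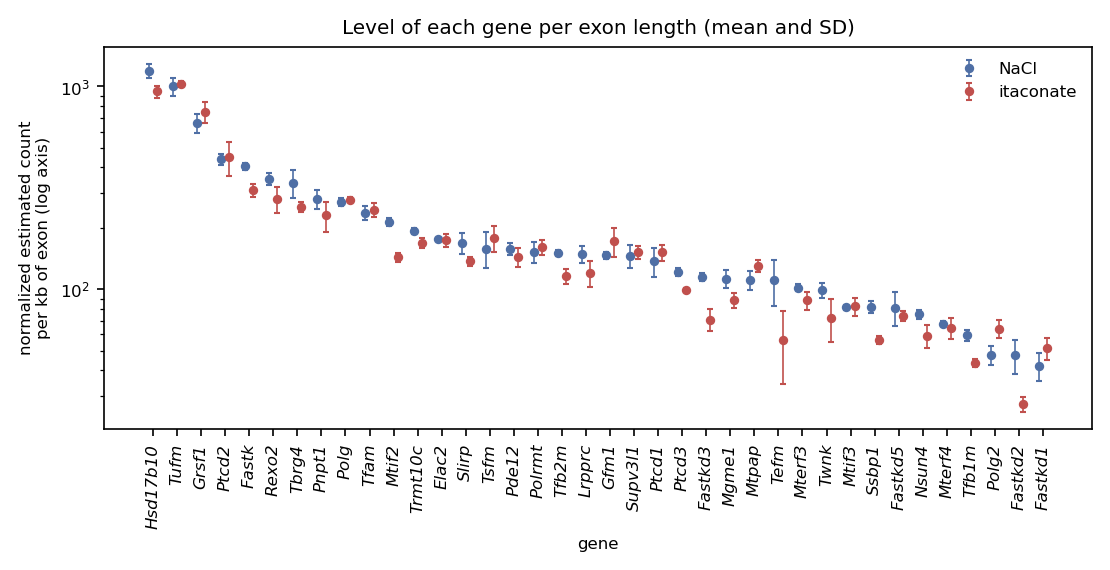
Mean normalized estimated count per kb of merged exon (y axis, log scale) of the 38 genes ordered by their level in NaCl (x axis), in NaCl and with itaconate, with SD over 3 libraries. The levels run from Hsd17b10 (1195 in NaCl) to Fastkd1 (41.95), and the separation of the groups is widest at Tefm (110.8 and 56.3).

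Other genes of the same processes were counted from a list of 65 symbols, of which 62 were measured: 12 fell, 3 rose and 47 did not pass, with a median log2 fold change of −0.154. Of 12 further genes of mtDNA maintenance, 3 fell and 3 rose. The genes that fell supply deoxynucleotides or cut DNA: Rrm2b, a p53-inducible ribonucleotide reductase subunit, fell by 1.20 ± 0.15 on the log2 scale (limma adjusted p = 8.76e-05), Tk2, the mitochondrial thymidine kinase, by 1.15 ± 0.16 (1.33e-04), and the nuclease gene Endog by 0.92 ± 0.16 (7.87e-04). Dna2, a nuclease-helicase of both nucleus and mitochondria, rose by 0.58 ± 0.17 (adjusted p = 0.0158), as did Top3a (0.38 ± 0.11) and Primpol (0.27 ± 0.0998), both also at work in the nucleus. In RNA modification, 4 of 20 genes fell and 0 rose: the RNA methyltransferase genes Nsun2 (−0.60 ± 0.096), Nsun3 (−0.86 ± 0.24) and Trmt61b (−0.67 ± 0.22) and the pseudouridine synthase gene Trub2 (−0.58 ± 0.17). Of 11 mitoribosome assembly genes 3 fell, the GTPase genes Mtg2 (−0.84 ± 0.17) and Gtpbp10 (−0.62 ± 0.17) and the helicase gene Ddx28 (−0.48 ± 0.14). Of 11 translation genes only Gfm2, a ribosome recycling factor, fell (−0.43 ± 0.10, adjusted p = 0.00590). Of 8 other transcription and RNA end genes only Mterf1b fell (94.3 ± 16.5 to 43.3 ± 15.3; log2 fold change −1.16 ± 0.33), and its near copy Mterf1a, with which reads may be divided, was at −0.26 ± 0.26. When a library was left out, the count that fell in the whole list ran from 8 (without itaconate replicate 2 or NaCl replicate 1) to 14 and the count that rose was 1, or 2 without itaconate replicate 3.

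The genes for the proteins of the mitochondrial ribosome, which translates the same mRNAs, had 12 of 79 lower and 3 higher (median log2 fold change −0.0942). They were taken by symbol (Mrpl or Mrps and a number), which brings in the pseudogene Mrpl23-ps1. Mrpl12 and Mrpl58 are also in the list of other genes above. None of these passed. Mrps2 had the smallest p, from 514 ± 14.8 in NaCl to 238 ± 53.4 with itaconate (log2 fold change −1.13 ± 0.17, limma adjusted p = 2.36e-04), and Mrpl54 (−0.56 ± 0.11), Mrpl17 (−0.57 ± 0.13) and Mrpl55 (−0.77 ± 0.19) followed in order of p. Leaving out itaconate replicate 2 left 5 that fell, and leaving out NaCl replicate 3 left 7. The count that rose was 0 without itaconate replicate 1 or 2 or NaCl replicate 2, and 5 without itaconate replicate 3. Of 74 nuclear genes of oxidative phosphorylation, 8 fell and 5 rose (median log2 fold change 0.0259). The complex III subunit genes Uqcrq (−1.06 ± 0.10) and Uqcrh (0.42 ± 0.0912) moved in opposite directions, and the complex I subunit genes Ndufv3 (−0.83 ± 0.0991) and Ndufb9 (−0.43 ± 0.0947) fell. The median of the latter list was −0.0209 without NaCl replicate 2, the count that fell was 4 without NaCl replicate 3, and the count that rose was 3 without itaconate replicate 1 or NaCl replicate 2 and 8 without itaconate replicate 3. The shares that fell were thus 23.7% for the 38 genes, 19.4% for the other factors, 15.2% for the ribosomal proteins and 10.8% for oxidative phosphorylation, beside 17.8% of all tested genes. The differences between these lists were not tested.

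**Figure D5:**
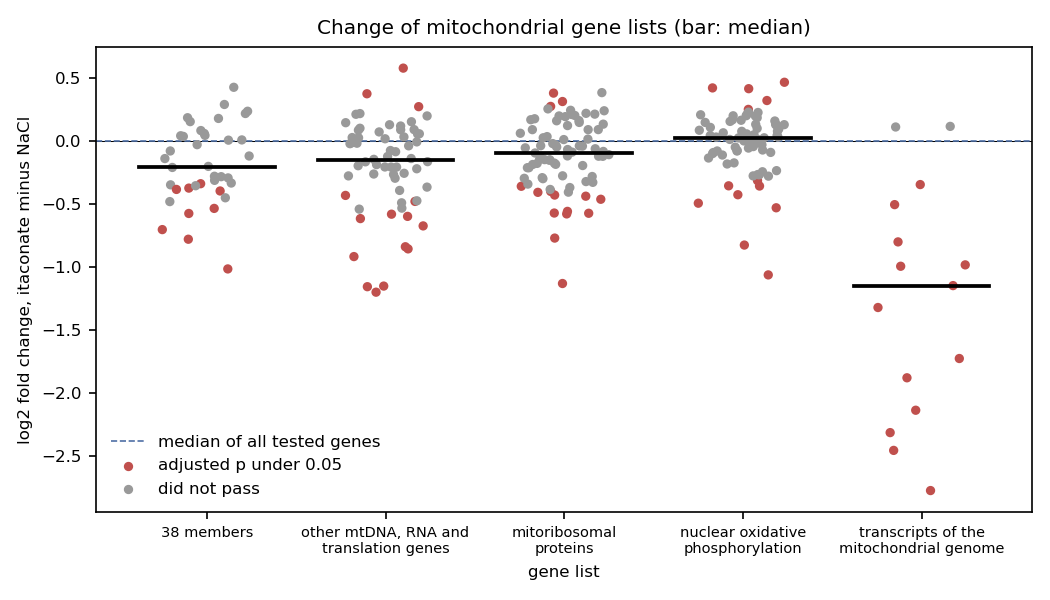
Log2 fold change (y axis, itaconate minus NaCl) of each gene (points; red with an adjusted p under 0.05) in 5 mitochondrial gene lists (x axis), with the median of each list (black bar) and of all tested genes (dashed line). The medians of the 4 nuclear lists run from −0.205 to 0.0259, and that of the transcripts of the mitochondrial genome is −1.15.

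Of the RNAs that this machinery makes, 13 of the 15 protein-coding and ribosomal transcripts fell (median log2 fold change −1.15). The complex I mRNAs mt-Nd5 and mt-Nd4 changed by −1.88 ± 0.0911 and −2.14 ± 0.107 on the log2 scale and the cytochrome b mRNA mt-Cytb by −2.46 ± 0.136, with mt-Nd6 the 4 smallest p of the list. mt-Co1, which encodes the catalytic subunit of complex IV, had 182957, 186702 and 170542 with itaconate and 167614, 162797 and 169114 in NaCl, higher in every itaconate library but not past the threshold (0.11 ± 0.0993, adjusted p = 0.408). mt-Nd6, the light-strand mRNA that Fastk stabilises, had 1087, 1073 and 1100.3 with itaconate and 3639, 3332 and 3837 in NaCl (log2 fold change −1.73 ± 0.09, limma adjusted p = 2.20e-07). With the strand setting of the counting not given, the value of mt-Nd6 may include reads of RNA from the other strand. The large ribosomal RNA mt-Rnr2, which needs Fastkd2, went from 11986 ± 1574 to 6042 ± 446 (−0.98 ± 0.10), while the small one, mt-Rnr1, was at 7402 ± 286 and 8030 ± 424 (0.12 ± 0.08, adjusted p = 0.281). Both ribosomal RNAs are read from the same promoter region. Whether these levels follow from the levels of the nuclear genes was not tested.

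Of 13 nuclear regulators known to act on mitochondrial gene promoters or on mitochondrial content, 12 were tested, of which 2 fell (16.7%, beside 17.8% of all tested genes) and 2 rose (16.7%, beside 18.2%). Myc, which drives mitochondrial biogenesis in activated lymphocytes, went from 7459 ± 775 to 5107 ± 749 (log2 fold change −0.55 ± 0.11, limma adjusted p = 0.00210). Hif1a, the oxygen-sensing factor, went from 32223 ± 2496 to 20693 ± 4693 (−0.66 ± 0.13, adjusted p = 0.00234). Sp1, which binds GC boxes, rose by 0.48 ± 0.11 (adjusted p = 0.00541), and the coactivator gene Ppargc1b rose from a low level, 37.8 ± 11.9 to 91.5 ± 20.2 (1.28 ± 0.33, adjusted p = 0.00859). With a filter at a mean of 100, which leaves it out, 1 regulator rose, and without itaconate replicate 3 the number that rose was 5. Of the factors whose cores were searched, none of the following passed. Gabpa, the DNA-binding subunit of GABP, was at 1802 ± 178 with itaconate against 2151 ± 249 in NaCl (−0.25 ± 0.11, adjusted p = 0.0890), and its partner subunit Gabpb1 pointed the other way, at 1468 ± 129 against 1262 ± 80.8 (0.22 ± 0.10, adjusted p = 0.121). Nrf1 had a log2 fold change of 0.02 ± 0.10 (adjusted p = 0.903) and Yy1 one of 0.21 ± 0.0952 (adjusted p = 0.101).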

How the data were processed

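RNA-seq libraries of 6 CD4+ T cell samples were analysed, 3 per group. The authors deposited 1 table of RSEM estimated counts per gene symbol divided by a size factor, a normalized expression signal. STAR 2.7.0f, RSEM 1.3.0 and mm10 are named in the submitters' processing notes. Annotation, size-factor tool and strand setting were not given in the sources used here. Multiplying by a size factor, read from the most frequent nonzero value of each library, gave back estimated reads, which RSEM may leave as fractions. Between 80.0% and 82.0% of them per library were whole reads (within 0.02 reads). Because the rest were fractions, no count model was used. For the 107 symbols on several entries the highest mean was kept.

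Values of genes with a mean of at least 10 entered limma 3.58.1 (R 4.3.3) on the log2(value + 1) scale (intensity trend, no covariate, two-sided, Benjamini-Hochberg adjustment over 13170 genes at 0.05). Fold changes are on this scale and understate those of low genes, and a shift common to all genes is scaled away. Replicates differed by more than sampling noise (chi-square per degree of freedom 12.8 to 25.5 within groups). The fit was tested on simulated data.

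The members, lists and roles were chosen with earlier results of these data known. Genes that passed are given in every library. So are, of those that did not pass, the 6 with the highest mean and the 4 farthest from 0. The others were to be given by fold change alone. The further values printed for them were chosen after they were seen. Up to 4 genes of each comparison list with the smallest p are named. Others of those lists (Top3a, Primpol, Mterf1a, Prorp, mt-Co1, mt-Rnr1, mt-Rnr2, Gabpa, Gabpb1, Nrf1 and Yy1) were chosen after their values were seen. Positions, exon overlaps and 31-base sequences shared between genes are from GENCODE M21 (GRCm38), and promoters from RefSeq. Of 38 promoter windows, 31 continued into a GENCODE transcript of the gene. The alternatives were pseudocounts of 0.1 and 10, no filter or a mean of at least 100, 3 other scalings, leaving out each library, a block for the replicate number, and 2 other variance models.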

Additional observations from a re-analysis of the deposited data

How the results depend on the processing

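Of the 9 genes that fell, 5 (Ssbp1, Fastk, Fastkd2, Fastkd3 and Mtif2) kept their call in all 16 alternatives, and Tefm, Tfb2m, Hsd17b10 and Tbrg4 lost it in at least 1. Of the 29 that did not pass, 9 passed in at least 1. Leaving out each library in turn, the count that fell ran from 5 (without NaCl replicate 3) to 12 (without itaconate replicate 3), the count that rose from 0 to 1 (Grsf1, without itaconate replicate 3), and the median log2 fold change from −0.249 (without itaconate replicate 1) to −0.129 (without itaconate replicate 3). After quantile normalization 1 gene rose, Polg2. With the replicate number as a block, 15 fell and 1 rose, Polg2 again. Same-numbered libraries deviated together with correlations across genes of 0.147, 0.0381 and 0.130, and each library correlated best with its own number, a hint from the data and not from the labels, which tie the numbers to no mouse or day. The sign of 8 genes near 0 turned in some alternatives, and none of these passed in any. After quantile normalization Ptcd2 was at −0.0144 and Tufm at −0.00506. Leaving out each library in turn, the log2 fold change ran from −0.0135 to 0.163 for Polrmt, from −0.0146 to 0.109 for Tfam, from −0.0724 to 0.0323 for Elac2 and from −0.229 to 0.0305 for Fastkd5. It ran from −0.126 to 0.155 for Ptcd2, from −0.000729 to 0.167 for Supv3l1, from −0.00288 to 0.124 for Tufm and from −0.0649 to 0.0829 for Mtif3. The causes were not tested. With 3 libraries per group, a gene that did not pass may still differ.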
